A study of Mus musculus with 2 samples.

Results

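Complement is a cascade of plasma proteins and membrane regulators, and 9 of its genes are described here: C1qa, C1qb, C1qc, C1ra, C4b, C2, C3, Cfb and Cd55. They were taken as listed symbols, each matched to 1 row by gene identifier, out of 43346 gene rows, and all 9 averaged 1 TPM or more over the libraries, where TPM is a transcript abundance corrected for length and depth. The tissue was whole lung of 1 adult female C57BL/6J mouse aged 10 weeks, with no treatment and no engineered allele named in the labels. Its polyadenylated RNA was read in 2 libraries labelled technical replicate 2 and technical replicate 1. There is 1 group and no comparison of conditions, so every SD is over n = 2 libraries and holds technical spread alone, with none between animals.

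In the classical pathway, C1q binds antibody or other surfaces, and its partner proteases C1r and C1s then cleave C4 and C2 to form an enzyme that splits C3. In the alternative pathway, factor B takes the place of C2 in an enzyme that splits C3 as well, and regulators such as CD55 make both enzymes fall apart on host cells. Much plasma complement is made in the liver, while C1q is made largely by macrophages and dendritic cells, and epithelial and stromal cells of tissues such as the lung make C3 and several other components locally.

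The sequences shown first are coding stretches of the 3 C1q chains and of Cd55. The genes of the chains were 27.1-fold to 105-fold higher in replicate 2 in counts, and Cd55 was the only one of the 9 that was lower. The sequences are from the reference transcripts of GENCODE release M21 on GRCm38. C1q chains carry a collagen-like repeat in which glycine recurs once in 3 residues, and capitals mark the glycine codon that opens each 3-codon unit, in the longest unbroken run found. The run held 16 units at chr4:136896565-136896708 in C1qa, 29 units over 2 exons at chr4:136880700-136882217 in C1qb and 16 units at chr4:136890439-136890582 in C1qc, all on the minus strand. Glycine codons begin with GG, and the runs had a GC content of 61.8% in C1qa, 64.8% in C1qb and 71.5% in C1qc. The Cd55 stretch is the 144 coding bases of lowest GC content, 36.8%, over 2 exons at chr1:130458102-130459640 on the minus strand, and has no capitals because nothing in it is marked.
C1qa: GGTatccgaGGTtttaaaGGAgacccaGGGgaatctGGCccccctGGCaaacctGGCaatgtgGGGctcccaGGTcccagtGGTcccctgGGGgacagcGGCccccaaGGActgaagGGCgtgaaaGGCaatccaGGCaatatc
C1qb: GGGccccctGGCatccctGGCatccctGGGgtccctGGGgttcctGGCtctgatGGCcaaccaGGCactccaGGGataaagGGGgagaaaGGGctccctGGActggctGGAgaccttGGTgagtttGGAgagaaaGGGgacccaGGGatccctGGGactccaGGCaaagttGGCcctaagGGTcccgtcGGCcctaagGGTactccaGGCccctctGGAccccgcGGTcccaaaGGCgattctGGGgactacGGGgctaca
C1qc: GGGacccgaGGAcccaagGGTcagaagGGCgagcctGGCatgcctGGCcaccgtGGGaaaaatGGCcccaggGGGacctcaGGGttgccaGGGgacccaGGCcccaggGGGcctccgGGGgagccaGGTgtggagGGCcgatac
Cd55: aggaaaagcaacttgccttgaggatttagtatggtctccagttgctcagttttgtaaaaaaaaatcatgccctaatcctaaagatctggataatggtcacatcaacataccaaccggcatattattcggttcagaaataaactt

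The libraries held 17110882 expected counts (estimated reads per gene) in replicate 2 and 16104442 in replicate 1, and they stood far apart across the whole transcriptome. Among the 14139 genes that averaged 1 TPM or more, here the genes tested, 39.3% exceeded 2-fold upwards in replicate 2 and 28.2% downwards, and the median log2 ratio was 0.19. Ratios are of expected counts after TMM scaling, with a prior of 0.5 counts on the log2 scale, folds are of the counts without the prior, and their 95% intervals are exact and cover counting error only. Of 6 lung genes used to check the tissue label, 5 were at 1 TPM or more in both libraries and the tight junction gene Cldn5 was at 607 TPM in replicate 2, against 0.43 TPM in replicate 1. Cldn5 had a log2 ratio of 10.5 at a GC content of 60.5%, and all tested genes at 60% to 62% had a median of 5.54. In whole tissue, fewer cells of a type and less RNA per cell cannot be told apart.

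As measured, 7 of the 9 genes were over 2-fold higher in replicate 2, where 39.3% of all tested genes were, and 1 of 9 was over 2-fold lower, where 28.2% of all tested genes were. C1qa, C1qb, C1qc, C4b, C2, C3 and Cfb were higher in replicate 2, by 6.38-fold to 105-fold. Cd55 was lower and C1ra lay within 2-fold. Their median log2 ratio was 4.74, beside 0.19 over all genes tested. Added up, the 9 genes gave 728 TPM in replicate 2, against 386 TPM in replicate 1, a mean of 557 TPM.

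**Figure D1:**
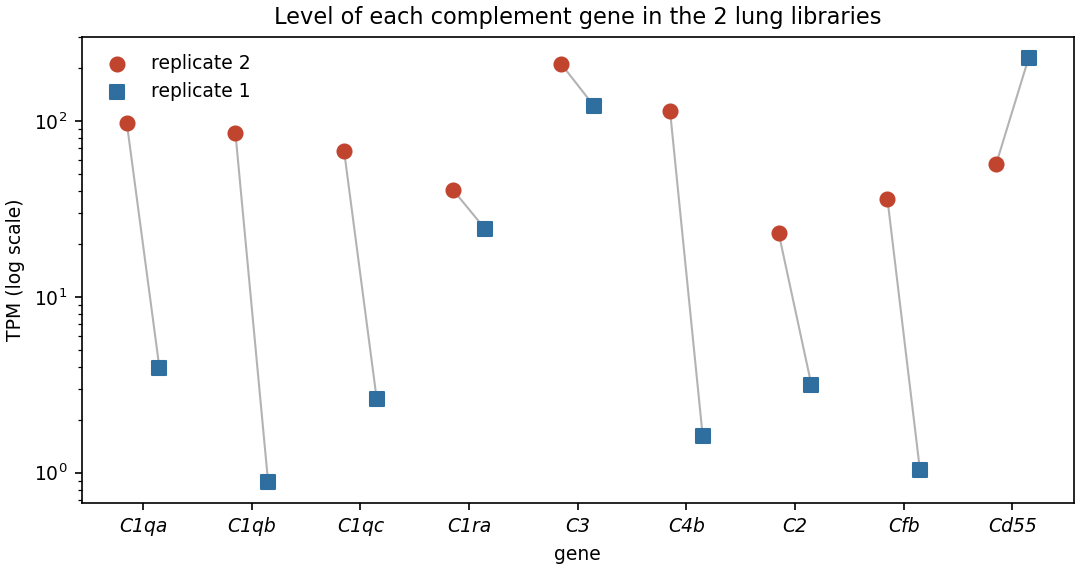
TPM of each of the 9 genes (log axis) in replicate 2 (circles) and replicate 1 (squares), with a line joining the values of a gene. C1qb lies at 84.7 TPM in replicate 2, against 0.89 TPM in replicate 1, while Cd55 runs the other way, at 56.6 TPM in replicate 2, against 228 TPM in replicate 1.

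The recognition molecule C1q is built from equal numbers of its A, B and C chains, whose genes lie in a cluster on chromosome 4 between positions 136880129 and 136898803 of GRCm38, all on the minus strand. C1qa (ENSMUSG00000036887.5), the A chain, was at 97.1 TPM in replicate 2, against 3.95 TPM in replicate 1, a mean of 50.5 ± 65.8 TPM (SD, n = 2). C1qb (ENSMUSG00000036905.8), the B chain, was at 84.7 TPM in replicate 2, against 0.89 TPM in replicate 1, with a mean of 42.8 ± 59.2 TPM. C1qc (ENSMUSG00000036896.5), the C chain, was at 67.2 TPM in replicate 2, against 2.62 TPM in replicate 1, with a mean of 34.9 ± 45.7 TPM. Among 21474 protein-coding genes, C1qa ranked 1073 in replicate 2 and 8477 in replicate 1, and C1qb ranked 1222 in replicate 2 and 11386 in replicate 1.

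In counts, C1qa had 1312 in replicate 2 and 38 in replicate 1, 27.1-fold higher (95% counting interval 19.6 to 38.5). C1qc had 1081 counts in replicate 2 and 30 in replicate 1, 28.3-fold higher (19.7 to 42.1). C1qb had 1209 counts in replicate 2 and 9 in replicate 1, 105-fold higher (55.3 to 231), and its interval did not overlap those of the other chains. The shares of the chains were closer to even in replicate 2 than in replicate 1, a contrast that rests on C1qb and its 9 counts in replicate 1. In replicate 2, C1qa held 39.0%, C1qb 34.0% and C1qc 27.0% of the summed TPM of the chains. In replicate 1, C1qa held 52.9%, C1qb 11.9% and C1qc 35.1%. C1qa exceeded C1qb by 1.15 times in TPM in replicate 2 and by 4.44 times in replicate 1, whereas its ratio to C1qc was 1.44 in replicate 2 and 1.51 in replicate 1.

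Genes of macrophages and monocytes, cells that make C1q, were present in both libraries. All 8 genes on the list were at 1 TPM or more in both, with sums of 11622 TPM in replicate 2, against 5872 TPM in replicate 1, most of it the lysozyme gene Lyz2. Of these 8 genes, 5 were over 2-fold higher in replicate 2 and 1 was lower, beside 39.3% and 28.2% of all tested genes. The growth factor receptor gene Csf1r was at 30.1 TPM in replicate 2, against 3.20 TPM in replicate 1, Cd68 at 41.2 TPM in replicate 2, against 4.08 TPM in replicate 1, and the mannose receptor gene Mrc1 at 19.7 TPM in replicate 2, against 118 TPM in replicate 1. Ratios moved with GC content over all genes, as given below, and Csf1r was at 54.2%, Cd68 at 53.7% and Mrc1 at 39.6%. The part of macrophages and monocytes in the C1q difference was not tested.

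The first proteases and their substrates came next in the cascade. C1ra (ENSMUSG00000055172.9, chromosome 6, 124512405 to 124523443, plus strand) encodes C1r, the protease that activates C1s. It was at 40.6 TPM in replicate 2, against 24.2 TPM in replicate 1 (mean 32.4 ± 11.6 TPM), from 1646 counts in replicate 2 and 695 in replicate 1. This was 1.86-fold higher in replicate 2 (1.70 to 2.03), an interval that reaches past 2-fold, and it was called when libraries were scaled by total counts, at a log2 ratio of 1.16. Its paralog C1rb was at 0 counts in both libraries, which allows up to 0.175 CPM (counts scaled by library total) in replicate 2 and 0.186 CPM in replicate 1. C1s1, which encodes the partner protease C1s, was at 69.7 TPM in replicate 2, against 84.1 TPM in replicate 1, so C1ra stood at 0.583 of C1s1 in replicate 2 and 0.288 in replicate 1. In counts C1s1 lay within 2-fold, like C1ra.

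C4b (ENSMUSG00000073418.4, chromosome 17, 34728380 to 34743882, minus strand) encodes C4, which C1s cleaves. It was at 113 TPM in replicate 2, against 1.62 TPM in replicate 1 (mean 57.3 ± 78.7 TPM). With 4593 counts in replicate 2 and 94 in replicate 1, it was 38.3-fold higher (31.3 to 47.5). Its near-identical paralog C4a was at 1.51 TPM in replicate 2, against 0.24 TPM in replicate 1, with 8 counts in replicate 2 and 2 in replicate 1, and with its reads added C4b had a log2 ratio of 5.23 in place of 5.25. Reads that match both genes of a pair of paralogs cannot be told apart, so counts of C4b, C1ra and Cd55 are uncertain to that extent.

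C2 (ENSMUSG00000024371.10, 34862604 to 34898265) and Cfb (ENSMUSG00000090231.6, 34856374 to 34862518) lie side by side on the minus strand of chromosome 17 and encode the related proteases of the classical and alternative C3-splitting enzymes. C2 was at 22.9 TPM in replicate 2, against 3.17 TPM in replicate 1 (mean 13.0 ± 13.9 TPM). Cfb was at 36.0 TPM in replicate 2, against 1.03 TPM in replicate 1 (mean 18.5 ± 24.7 TPM). Cfb was the higher of the pair in replicate 2, at 1.57 times C2 in TPM, and the lower in replicate 1, at 0.325 times. In counts C2 was 9.02-fold higher in replicate 2 (7.06 to 11.7), from 805 counts in replicate 2 and 70 in replicate 1. Cfb was 43.6-fold higher (26.7 to 76.6), from 889 counts in replicate 2 and 16 in replicate 1.

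Another annotated gene shares the exons of both. Gm20547 (ENSMUSG00000092511.3, chromosome 17, 34856412 to 34882042, minus strand) spans both genes, and its transcript Gm20547-201 has 918 of its 2916 bases in C2 exons and 1998 in Cfb exons. It was at 0 expected counts in replicate 2 and 107.8 in replicate 1, where it held 55.6% of all counts at the locus, beside 36.2% for C2 and 8.26% for Cfb. Reads in shared exons cannot be told apart by gene, so the division among the 3 rows is uncertain. Summed, the 3 rows had 1694 expected counts in replicate 2 and 194 in replicate 1, 6.85-fold higher (5.90 to 7.99). With the counts of Gm20547 added to Cfb alone, Cfb was 5.63-fold higher (4.66 to 6.85) in place of 43.6-fold, and with them added to C2 alone, C2 was 3.55-fold higher (3.01 to 4.20). C2 and Cfb were each past 2-fold under these ways of dividing the reads. On the other strand C2 overlaps Zbtb12, with 101 expected counts in replicate 2 and 26 in replicate 1, and Cd55 overlaps the antisense gene Gm16083, with 4 in replicate 2 and 12 in replicate 1, and whether the counting used strand is not known here.

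C3 (ENSMUSG00000024164.11, chromosome 17, 57203970 to 57228136, minus strand), the component on which all pathways converge, had the highest mean of the 9 genes. It was at 209.5 TPM in replicate 2, against 121 TPM in replicate 1 (mean 165 ± 62.4 TPM), and ranked 504 in replicate 2 and 996 in replicate 1 among 21474 protein-coding genes. From 12788 counts in replicate 2 and 1573 in replicate 1 it was 6.38-fold higher (6.05 to 6.73) in counts, but 1.73-fold higher in TPM, which is within 2-fold. TPM divides by the effective length that the authors averaged over the transcripts of the gene, which was 3868 bases in replicate 2 and 1160 bases in replicate 1.

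Cd55 (ENSMUSG00000026399.8, chromosome 1, 130439027 to 130462744, minus strand) encodes decay-accelerating factor, a membrane protein that dissociates both C3-splitting enzymes. It was at 56.6 TPM in replicate 2, against 228 TPM in replicate 1 (mean 142 ± 121 TPM), and ranked 1869 in replicate 2 and 524 in replicate 1 among protein-coding genes. With 1848 counts in replicate 2 and 5360 in replicate 1 it was 3.70-fold lower in replicate 2 (3.50 to 3.90). Cd55b, its paralog, was at 0.90 TPM in replicate 2, against 2.91 TPM in replicate 1, so Cd55 took nearly all the abundance of the pair. C3 exceeded Cd55 by 3.70 times in TPM in replicate 2, whereas in replicate 1 it stood at 0.533 of Cd55. The order of C3 and Cd55 by TPM thus differed between the libraries. Ratios moved with GC content over all genes, as given below, and C3 was at 52.0% and Cd55 at 42.8%. In replicate 1 the short form C3-203 held 82.9% of C3.

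The order of the genes by TPM differed as well. In replicate 2 it ran C3, C4b, C1qa, C1qb, C1qc, Cd55, C1ra, Cfb and C2. In replicate 1 it ran Cd55, C3, C1ra, C1qa, C2, C1qc, C4b, Cfb and C1qb. The lower 6 places of replicate 1 held 0.89 to 3.95 TPM, and all 6 of these genes were at 22.9 TPM or above in replicate 2. C4b stood second in replicate 2 and seventh in replicate 1, and C3 exceeded it by 1.85 times in replicate 2 and 74.9 times in replicate 1. Short annotated forms weigh in these values, with C4b-203 at 56.0% of C4b in replicate 2 and C3-203 at 82.9% of C3 in replicate 1. The full coding transcript C3-201 was at 160 TPM in replicate 2, against 20.8 TPM in replicate 1. For C4b-201 these were 49.1 TPM in replicate 2, against 1.62 TPM in replicate 1.

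**Figure D2:**
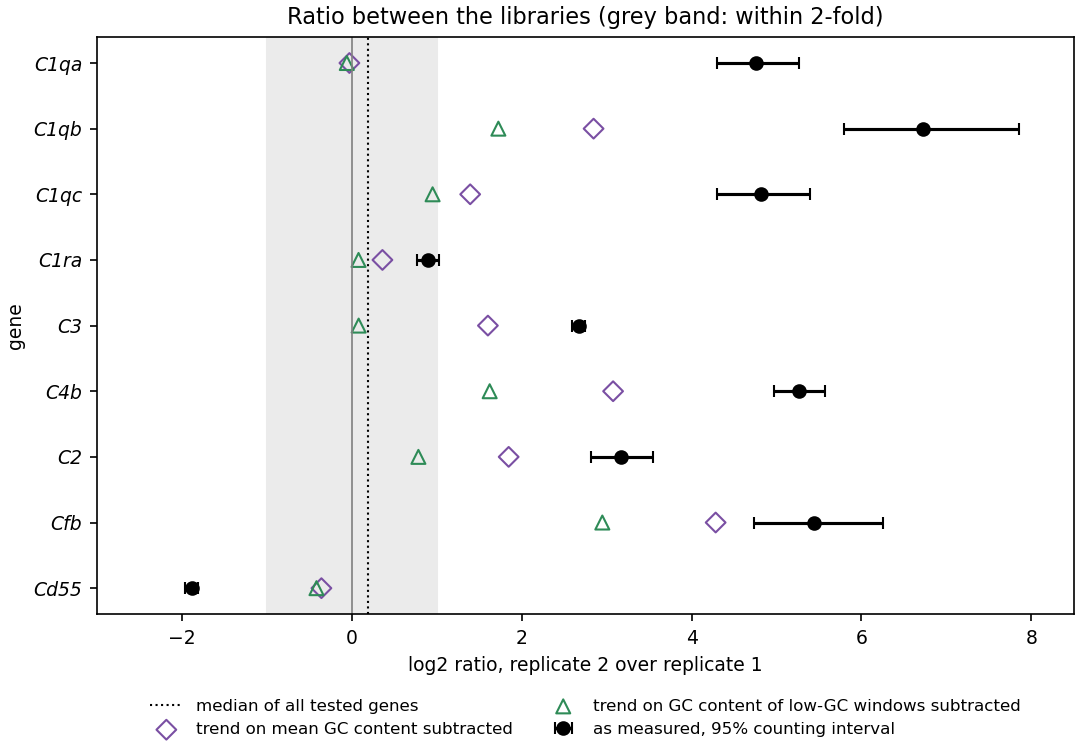
Log2 ratio of replicate 2 over replicate 1 for each gene, from counts with 95% counting intervals (circles), after subtracting the trend of all tested genes on mean GC content (diamonds), and after subtracting the trend on low-GC windows (triangles). The circles of 7 genes lie right of the grey band and Cd55 left of it, while C1qa, C1ra and Cd55 lie inside the band with either trend subtracted.

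The ratio moved with the GC content of the transcripts, both over all genes and among these 9. Over all tested genes the median log2 ratio was -2.13 at a GC content of 38% to 40% and 5.54 at 60% to 62%. Cd55 had the lowest mean GC content over its annotated transcripts, 42.8%, and was lower in replicate 2. C1ra, next at 50.9%, lay within 2-fold, and the other 7 genes, at 52.0% to 59.5%, were all over 2-fold higher. The tested genes within 1 percentage point of each gene's GC content give the level to read it against. For C1qa, at 59.5%, these 672 genes had a median log2 ratio of 4.75, beside 4.74 for C1qa itself. For Cd55 the 976 such genes had a median of -1.59, beside -1.89, and for C1ra 1627 such genes had 0.46, beside 0.89. The remaining genes lay further above theirs. C1qc was at 4.80 beside 3.56, C1qb at 6.64 beside 3.96, C4b at 5.25 beside 2.21, C2 at 3.16 beside 1.37, C3 at 2.67 beside 1.06 and Cfb at 5.40 beside 1.13.

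With the lowess trend on mean GC content subtracted, 6 of the 9 genes were over 2-fold higher and 0 lower, with a median log2 ratio of 1.60, where 22.6% of all genes were higher and 20.5% lower. Cfb had the highest value, 4.28, followed by C4b at 3.08, C1qb at 2.85, C2 at 1.85, C3 at 1.60 and C1qc at 1.39. C1qa, at -0.03, C1ra, at 0.36, and Cd55, at -0.36, lay within 2-fold. The mean GC content weighs annotated transcripts alike, whatever their reads. The full C3 coding transcript, C3-201, took most C3 counts in both libraries and was at 53.3%, beside the 52.0% used. C4b-201 was at 55.3%, beside 54.3% used, and Cd55-201 at 40.4%, beside 42.8%. All tested genes at 52% to 54% had a median log2 ratio of 1.63, beside 2.67 for C3. Weights by reads were not tested, so the call of C3 is uncertain to that extent. A second trend, chosen after seeing the data, used the low-GC windows of each transcript in place of its mean, and with it subtracted 3 of the 9 genes were past 2-fold, Cfb at 2.95, C1qb at 1.73 and C4b at 1.62, where 19.0% of all genes were higher. The value of Cfb turned on how its reads were divided with Gm20547. With the counts of Gm20547 added to Cfb, an alternative also chosen after seeing the data, Cfb was at 1.37 with the mean GC trend subtracted and at 0.03 with the window trend, which left C1qb and C4b past 2-fold. With them added to C2, C2 was at 0.51 with the mean GC trend subtracted and at -0.56 with the window trend.

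**Figure D3:**
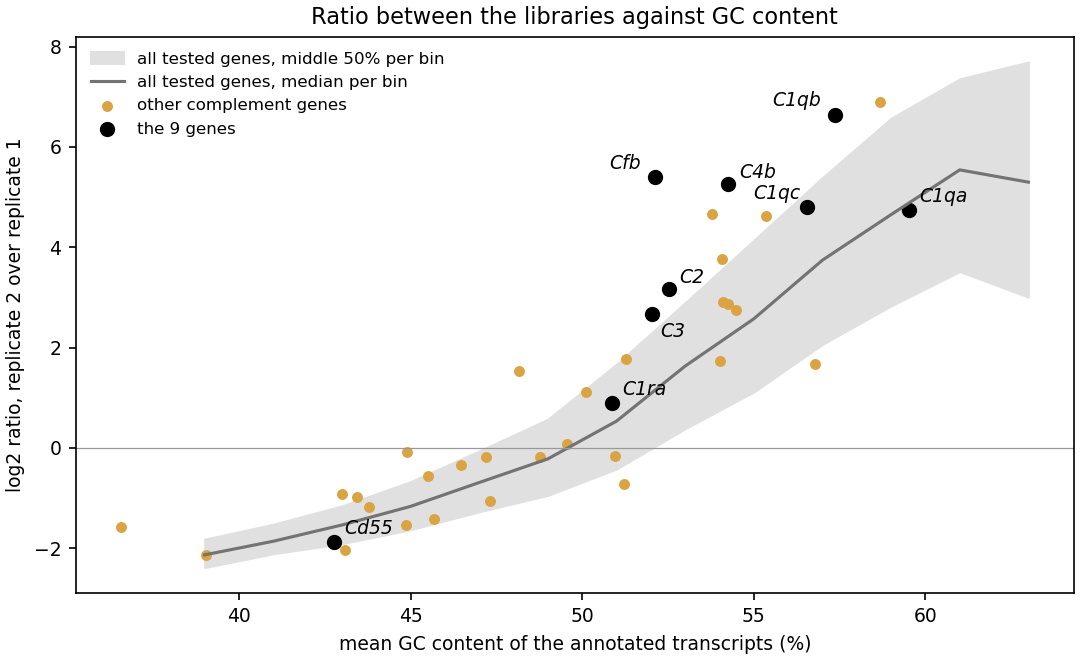
Log2 ratio of replicate 2 over replicate 1 against mean GC content of the annotated transcripts, for the 9 genes (black), the other tested complement genes (yellow) and all tested genes (line, median, and band, middle 50%, in bins of 2 percentage points). Cd55, at 42.8% GC, and C1ra, at 50.9%, lie within the band of all genes, while C1qb, C4b, C2 and Cfb lie above it and C3 near its upper edge.

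The transcript tables showed which annotated forms the reads were given to. The 9 genes had 33 annotated transcripts, of which 26 were above 0 expected counts in replicate 2 and 13 in replicate 1. C1qa, C1qb and C1ra have 1 transcript each, and C1qc-201 took 99.7% of C1qc in replicate 2 and 100% in replicate 1. Cd55 was divided nearly alike in both libraries. Cd55-201, the main coding form, held 77.8% of its abundance in replicate 2 and 79.9% in replicate 1, and the shorter Cd55-204 held 19.7% in replicate 2 and 19.4% in replicate 1. In the other 4 genes the leading form by TPM differed between the libraries, while by counts it differed in C2 and Cfb alone.

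C3-201, the full coding transcript of 5136 bases, held 76.3% of C3 in replicate 2 and 17.1% in replicate 1, at 160 TPM in replicate 2, against 20.8 TPM in replicate 1. C3-203, an annotated coding transcript of 554 bases, held 23.7% in replicate 2 and 82.9% in replicate 1, at 49.6 TPM in replicate 2, against 101 TPM in replicate 1. By counts C3-203 took 290 of the reads in replicate 2 and 422 in replicate 1, or 2.27% of the gene in replicate 2 and 26.8% in replicate 1. All 554 bases of C3-203 lie in exons of C3-201, so only its splice pattern and its ends set it apart. The junction over the longest intron of C3-203 joins C3 sequence across 17188 bases of the gene. It is shown because reads within an exon of C3-203 match C3-201 too. Whether other annotated C3 transcripts share this junction was not tested. The stretch shown lies at chr17:57209618-57226855 on the minus strand, with the 25 bases after the junction in capitals.
C3-203 junction: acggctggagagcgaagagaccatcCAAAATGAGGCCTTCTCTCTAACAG
Without reads along the transcript the files do not show how many reads crossed this junction.

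C4b-203, a form of 749 bases annotated as a retained intron, held 56.0% of C4b in replicate 2 and 0% in replicate 1, at 63.3 TPM in replicate 2, against 0 TPM in replicate 1. C4b-201, the full coding transcript, held 43.4% in replicate 2 and 100% in replicate 1, at 49.1 TPM in replicate 2, against 1.62 TPM in replicate 1. By counts C4b-201 took 87.6% of the gene in replicate 2, since a short form needs few reads for a high TPM. C4b-203 shares 465 of its bases with C4b-201, and the authors' posterior mean, a second estimate in the same table, gave it 17.4% in replicate 1 in place of 0%.

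C2-201 held 65.0% of C2 in replicate 2 and was estimated at 0 in replicate 1, where C2-206, a shorter coding form, held 100%. C2-206 held 28.9% in replicate 2. Cfb was spread over more forms, with Cfb-208 at 39.0%, Cfb-206 at 25.9% and Cfb-201 at 24.6% in replicate 2, and in replicate 1 Cfb-204 at 58.1% and Cfb-206 at 41.9%, from 16 counts in all. The authors' posterior mean gave C2-206 43.9% and Cfb-204 18.3% in replicate 1, so shares at these counts depended on the estimate used. For C3 and C2 the leading form of replicate 2 had a higher GC content than that of replicate 1, at 53.3% against 50.2% for C3 and 52.5% against 51.3% for C2. For Cfb the direction depended on the estimate, since Cfb-208, at 51.3%, led in replicate 2 and replicate 1 was led by Cfb-204, at 50.7%, or by the posterior mean by Cfb-206, at 52.9%. C4b went the other way, at 52.9% for C4b-203, which led in replicate 2, and 55.3% for C4b-201, which led in replicate 1. By counts C3-201 led C3 in both libraries, with 97.7% in replicate 2 and 73.2% in replicate 1. C4b-201 likewise led C4b in both, so the contrasts for C3 and C4b hold for TPM shares alone.

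**Figure D4:**
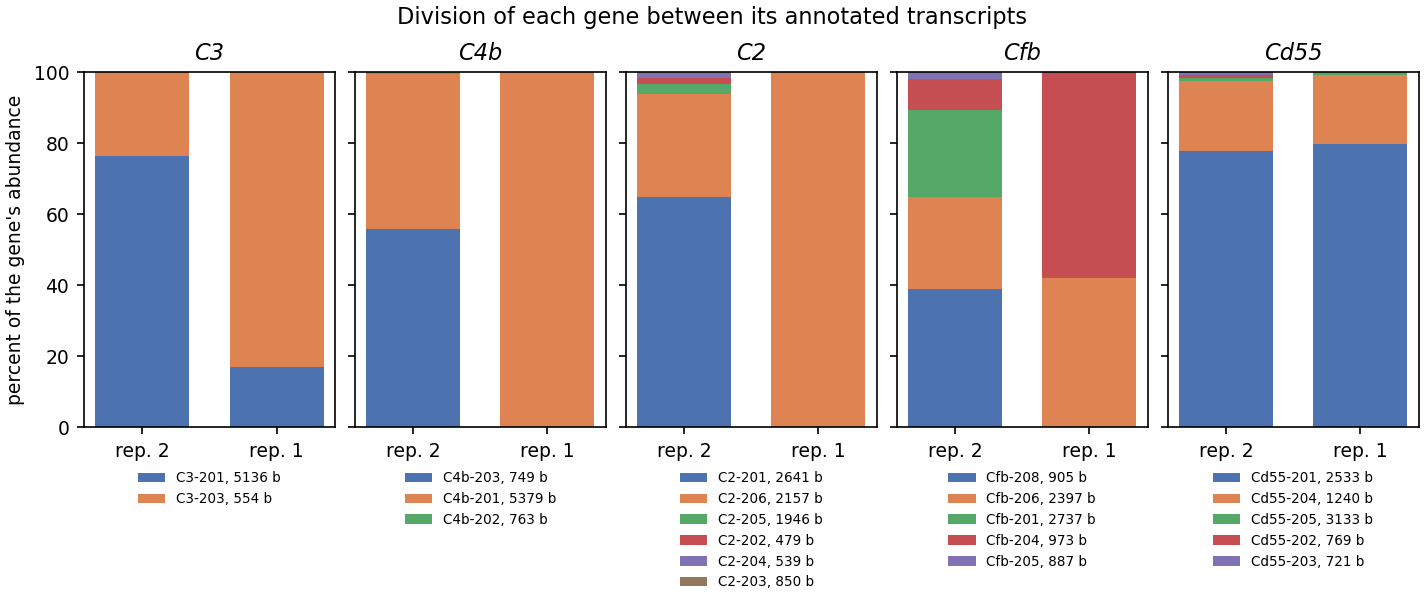
Percent of each gene's abundance held by its annotated transcripts in replicate 2 (left bar) and replicate 1 (right bar), with transcript lengths in bases. C3-203 is the smaller share of C3 in replicate 2, at 23.7%, and the larger in replicate 1, at 82.9%, whereas Cd55 is divided alike in both.

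The wider pathway was described from a list of 48 other complement genes, of which 29 were tested. Of these 29, 12 (41.4%) were over 2-fold higher in replicate 2 and 7 (24.1%) lower, close to the 39.3% and 28.2% of all tested genes, with a median log2 ratio of -0.16. With the mean GC trend subtracted, 7 (24.1%) were higher and 2 (6.9%) lower, beside 22.6% and 20.5% of all genes. Then 1 of 4 recognition molecules and proteases, 2 of 5 alternative and terminal genes, 4 of 13 regulators and 0 of 7 receptors were higher. Of the lower genes, 1 was a regulator and 1 a receptor. Folds below are as measured, with no trend subtracted. The whole list came to 1927 TPM in replicate 2, against 1713 TPM in replicate 1. A further 19 genes averaged below 1 TPM, among them the mannose-binding lectin genes Mbl1 and Mbl2 and the terminal pathway genes C8a, C8b and C9, and 4 genes of the list had 0 counts in both.

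Among recognition molecules and their proteases, 2 of 4 tested genes were higher and 1 lower. Fcna, a ficolin of the lectin pathway, was at 22.3 TPM in replicate 2, against 8.94 TPM in replicate 1, 7.37-fold higher in counts. Colec12, a scavenger receptor of the collectin family, was at 51.5 TPM in replicate 2, against 128 TPM in replicate 1, 2.25-fold lower.

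In the alternative and terminal pathway, 2 of 5 tested genes were higher and 0 lower. Cfd, the factor D protease that cleaves factor B, was at 696 TPM in replicate 2, against 6.37 TPM in replicate 1, 120-fold higher in counts, and properdin, Cfp, was at 30.6 TPM in replicate 2, against 2.39 TPM in replicate 1, 13.8-fold higher. Cfd is also on the adipocyte list, where Adipoq was at 90.1 TPM in replicate 2, against 99.96 TPM in replicate 1 and Plin1 at 11.9 TPM in replicate 2, against 0 TPM in replicate 1, and Car3, a carbonic anhydrase gene of adipocytes and muscle, at 199 TPM in replicate 2, against 565 TPM in replicate 1. The 5 adipocyte genes other than Cfd summed to 360.4 TPM in replicate 2, against 667.5 TPM in replicate 1, with 4 of the 5 at 1 TPM or more in both libraries, 2 over 2-fold higher and 1 lower. Over all tested genes, 39.3% were higher and 28.2% lower. Genes within 1 percentage point of the GC content of Cfd had a median log2 ratio of 4.43, beside 6.90 for Cfd. The part of adipose RNA in the level of Cfd was not tested. Hc, which encodes C5 in the mouse, was at 153 TPM in replicate 2, against 483 TPM in replicate 1 and lay within 2-fold in counts, as did the terminal component C7 at 31.7 TPM in replicate 2, against 39.7 TPM in replicate 1.

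The regulators were divided, with 6 of 13 tested genes higher and 4 lower. Serping1, the inhibitor of C1r and C1s, was at 302 TPM in replicate 2, against 48.6 TPM in replicate 1, 6.71-fold higher. Its log2 ratio was 2.75, beside a median of 2.35 for genes within 1 percentage point of its GC content. Clu and Vtn, whose products bind the terminal complex, were 7.52-fold and 25.6-fold higher, at 184 TPM in replicate 2, against 81.2 TPM in replicate 1 for Clu and 17.0 TPM in replicate 2, against 2.15 TPM in replicate 1 for Vtn. Cr1l, the rodent membrane regulator Crry, was at 75.5 TPM in replicate 2, against 146 TPM in replicate 1 and 1.98-fold lower, just within 2-fold. Cr2, the receptor of B cells and follicular dendritic cells, was at 3.20 TPM in replicate 2, against 13.99 TPM in replicate 1, 4.13-fold lower. C1qbp, a C1q-binding protein found mainly in mitochondria, was at 47.7 TPM in replicate 2, against 73.4 TPM in replicate 1 and within 2-fold.

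Of the 7 receptors tested, 2 were higher and 2 lower. Itgb2, the shared chain of complement receptors 3 and 4, was at 37.5 TPM in replicate 2, against 13.9 TPM in replicate 1, 3.31-fold higher. Its log2 ratio of 1.72 lay below the median of 2.10 for genes within 1 percentage point of its GC content. Vsig4, a macrophage receptor for C3 fragments, was at 2.54 TPM in replicate 2, against 7.57 TPM in replicate 1, 2.70-fold lower, and Cd93, an endothelial and myeloid membrane protein, was at 40.6 TPM in replicate 2, against 94.3 TPM in replicate 1, 2.10-fold lower.

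**Figure D5:**
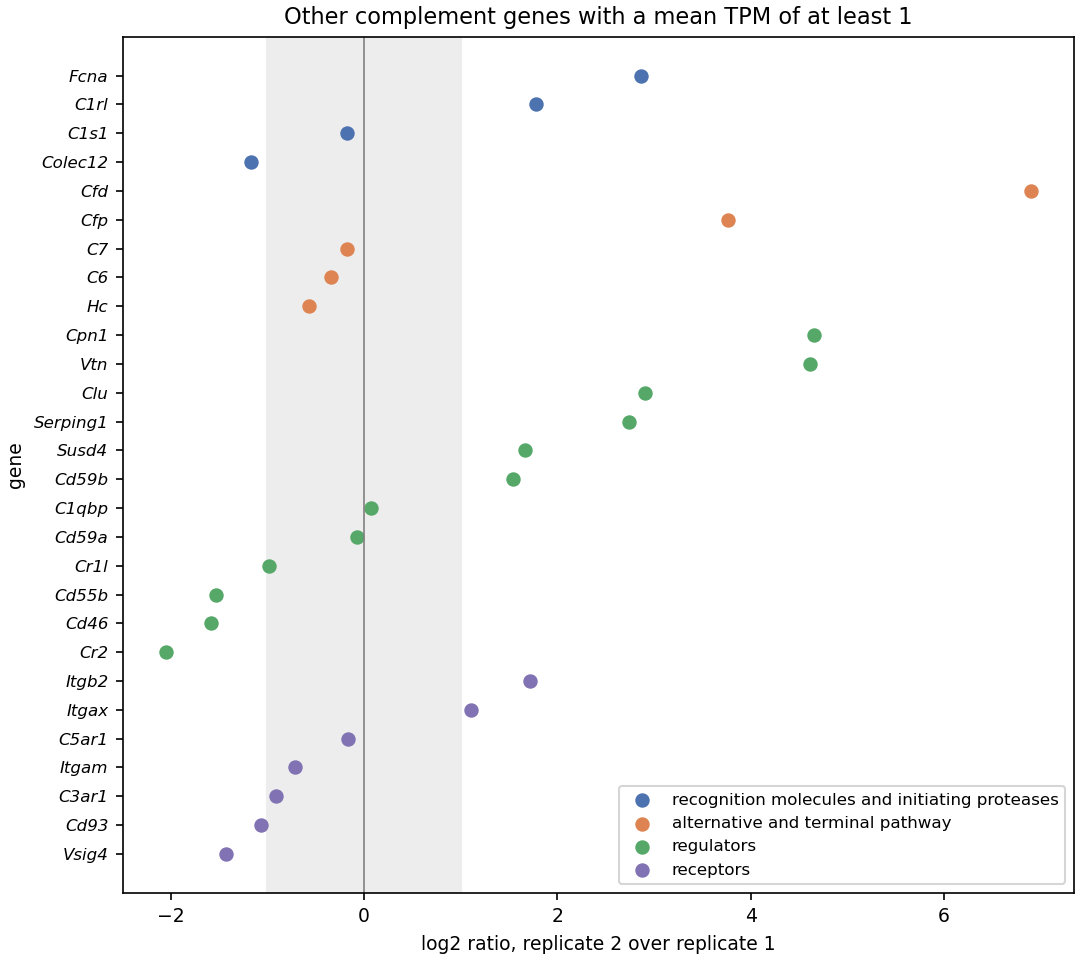
Log2 ratio of replicate 2 over replicate 1 for other tested complement genes, grouped by role, with a grey band for ratios within 2-fold. Cfd lies furthest right, at 6.90, and Cr2 furthest left of the genes shown, at -2.04.

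Genes of the liver, the main source of plasma complement, were nearly absent. Alb was at 1.91 TPM in replicate 2, against 1.44 TPM in replicate 1, Apoa1 at 0.74 TPM in replicate 2, against 0 TPM in replicate 1, Fga at 0.10 TPM in replicate 2, against 0.05 TPM in replicate 1, and Ttr at 0 TPM in both. Of the 8 genes on the list 2 were at 1 TPM or more in both libraries. All 8 together came to 598 TPM in replicate 2, against 449 TPM in replicate 1, of which the transferrin gene Trf, expressed in many tissues, took 592 TPM in replicate 2, against 447 TPM in replicate 1. Fibroblast and mesothelial genes summed to 442 TPM in replicate 2, against 784 TPM in replicate 1, with 3 of 8 higher and 4 lower. Of these sums Dcn, at a GC content of 42.4%, took 203 TPM in replicate 2, against 557 TPM in replicate 1. Neutrophil genes summed to 748 TPM in replicate 2, against 1157 TPM in replicate 1, with 1 of 4 higher and 1 lower. Of these S100a8, at a GC content of 44.5%, took 320 TPM in replicate 2, against 853 TPM in replicate 1. Over all tested genes, 39.3% were higher and 28.2% lower. The part of liver, fibroblast, mesothelial and neutrophil RNA in the complement levels was not tested.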

How the data were processed

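Expected counts, TPM and the percent of a gene's abundance held by each transcript were deposited by the authors in 1 gene and 1 transcript table per library, on mm10 with annotation M4 per the file headers and file descriptions. Expected counts deposited by the authors are estimated reads, with reads matching several places divided. No aligner, quantifier or strand setting is given in the sources used here. Symbols, positions and sequences came from GENCODE M21 on GRCm38, the same assembly, and 42462 of 43346 genes matched. Of the 33 transcripts, 32 had the same length there.

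Counts were rounded and scaled with TMM (edgeR 4.0.16, R 4.3.3; factors 1.10 for replicate 2 and 0.913 for replicate 1), and genes averaging 1 TPM or more were read against a 2-fold threshold. With 1 library on each side no p-value is given. The ratio was tested on simulated counts that held counting error and no GC trend. Since these libraries differ along GC content, that test covers the calculation alone. Intervals are Clopper-Pearson at 95%, and a count of 0 allows 3 counts. No molecular identifiers are named for the reads, so intervals and this limit cover counting error only. GC content is the mean over annotated transcripts, its trend a lowess fit with span 0.3 (statsmodels 0.14.6), and low-GC windows are the 10th percentile of windows of 180 bases. Alternatives were other scalings (total counts, DESeq2 1.42.0), TPM ratios, filters, zeros at 3 counts, GC trends, summed paralogs and, chosen after seeing the data, the window trend and Gm20547 added to C2 or Cfb. Python 3.11.15, scipy 1.17.1 and matplotlib 3.10.9 were used.

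All 9 genes are named. Other complement genes are named if among the 12 of highest mean TPM, a paralog of a member, or within the top 6 or bottom 6 by ratio given 100 counts or more, and genes at the edge of detection and marker genes were named after their values were seen. A gene of the list that meets this rule is counted but not reported here. The genes and lists were chosen with earlier results of these data known.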

Additional observations from a re-analysis of the deposited data

How the results depend on the processing

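The call of each of the 9 genes held with DESeq2 size factors, with paralogs summed and with Gm20547 added to C2 or Cfb. Summing paralogs touched C1ra, C4b and Cd55 alone, and C1rb added 0 counts to C1ra. Both filters and zeros at 3 counts could not change these calls, since the lowest count was 9 and the lowest mean 13.0 TPM. Total counts moved C1ra past 2-fold and the TPM ratio moved C3 within it, at log2 ratios of 1.16 and 0.79. With the GC trend subtracted, 0 of the 9 genes were lower, and C1qa had a log2 ratio of -0.027. With the window trend C1qa had -0.058, and 3 of the 9 genes were higher and 0 lower. With Gm20547 added to Cfb as well, 6 were higher and 0 lower with the GC trend, and 2 higher and 0 lower with the window trend. With it added to C2, 5 were higher and 0 lower with the GC trend, and 3 higher and 0 lower with the window trend, where C2 was at -0.56. Other complement genes numbered 44 with no filter, and 23 (52.3%) were higher and 9 (20.5%) lower, with a median log2 ratio of 1.17. All genes then numbered 20506, with 8538 (41.6%) higher and 5826 (28.4%) lower. The stricter filter, a mean of 10 TPM, left 17 other complement genes, with 6 (35.3%) higher and 3 (17.6%) lower. It left 7696 of all genes, with 2620 (34.0%) higher and 2630 (34.2%) lower. Subtracting the GC trend put 7 of 29 (24.1%) higher and 2 (6.9%) lower, beside 3173 (22.6%) and 2887 (20.5%) of 14067 genes. Subtracting the window trend put 3 of 29 (10.3%) higher and 5 (17.2%) lower, beside 2670 (19.0%) and 2478 (17.6%) of 14067 genes. The causes of these shifts were not tested. By total counts 42.4% of all genes were higher and 22.4% lower, with a median log2 ratio of 0.45 in place of 0.19, and by TPM ratio the median was 0.01. In CPM in place of TPM the sum over the 9 genes was 1009.5 and that over the other complement genes 2928, as means of the libraries. Without replicate 1 the sum of the 9 genes was 728 TPM and without replicate 2 it was 386 TPM, and no ratio can be given from 1 library. Counts of 9 to 94 in replicate 1 limit the ratios of C1qa, C1qb, C1qc, C4b, C2 and Cfb.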
